A study of Mus musculus with 6 samples.

Results

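Clock output genes are the rhythmic genes through which the circadian clock reaches the rest of the cell. Of the 23412 gene rows in a mouse liver RNA sequencing count table, 9 were taken by name: Dbp, Tef, Hlf, Nfil3, Ccrn4l (the older symbol of Noct, used here as the table has it), Bhlhe40, Bhlhe41, Usp2 and Wee1. All 9 were present and passed the filter on low counts. The livers came from C57BL/6J mice labelled as 8 weeks of age. All mice had eaten a high-fat diet for 4 weeks and were then treated for 3 days. The 3 libraries of the HFD_Lira3d group received liraglutide at 300 µg/kg by subcutaneous injection, and the 3 libraries of the HFD_PBS3d group are labelled PBS. Liraglutide activates the GLP-1 receptor and is used to lower blood glucose and appetite. The labels name no genetic change in either group. They give neither the hour of tissue collection nor the food intake, and they do not say that the libraries of a group came from separate animals. The p-values thus set the gap between groups against the scatter among libraries of a group, and that scatter may be technical.

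The core clock is a feedback loop in which the activators ARNTL and CLOCK switch on their own repressors, the PER and CRY proteins, through E-box sequences. The same E-boxes drive Dbp, Tef and Hlf, which code for the PAR bZIP factors, a family of leucine zipper activators that bind D-box sequences. NFIL3 binds the same D-boxes as a repressor, so that D-box genes receive opposing inputs. In the liver these factors control drug, bile acid and lipid metabolism in a daily rhythm. BHLHE40 and BHLHE41 are helix-loop-helix repressors that compete at E-boxes, nocturnin (the product of Ccrn4l) is a rhythmic enzyme of the deadenylase family, USP2 is a deubiquitinase with clock proteins among its substrates, and WEE1 is the kinase that holds back entry into mitosis.

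Short stretches that match a searched DNA motif lie just upstream of 4 of the members: Tef, Hlf, Nfil3 and Bhlhe41. They are shown as matches of letters, and binding was not tested. The share of all promoters with a match to any of the 7 motifs was not counted. Promoters of 250 bases before to 50 after a RefSeq start (GRCm38.p6) were found for 7 members, 8 promoters in all. Both strands were searched for 7 motifs: the E-box CACGTG, its variant CACGTT, the D-box TTANGTAA, the ROR elements TAGGTCA and TGGGTCA, the cAMP response element TGACGTCA and the glucocorticoid response element (AGAACA and TGTTCT with 3 bases of any kind between them). No searched motif contains another. Each line gives 30 bases, 5′ to 3′ on the gene's strand, with the match in capitals.
Tef, start 1, E-box (chr15:81802534-81802563, plus strand): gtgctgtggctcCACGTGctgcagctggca
Tef, start 2, E-box (chr15:81811264-81811293, plus strand): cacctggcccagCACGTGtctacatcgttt
Bhlhe41, E-box (chr6:145865556-145865585, minus strand): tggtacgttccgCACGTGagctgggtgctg
Hlf, cAMP response element (chr11:90390908-90390937, minus strand): ggtgcgggcccTGACGTCActcttgtcagg
Nfil3, ROR element on the opposite strand (chr13:52981033-52981062, minus strand): gcgctcggaacTGACCTActaacacacatc
The E-boxes begin at -127 and -138 from the Tef starts and at -153 from the Bhlhe41 start, the response element at -9 from the Hlf start and the ROR element at -12 from the Nfil3 start. Among all 32851 promoters of this length, 7.15% hold the E-box, 4.68% its variant, 2.32% the D-box, 2.61% TAGGTCA, 3.98% TGGGTCA, 1.79% the cAMP response element and 0.00913% the glucocorticoid response element.

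The promoters of Dbp, Ccrn4l and Usp2 held none of the 7 motifs within this window. That of Ccrn4l is printed because its transcript is the one that passed the test. Its 250 bases before the start (chr3:51224197-51224446, GRCm38.p6, plus strand) read: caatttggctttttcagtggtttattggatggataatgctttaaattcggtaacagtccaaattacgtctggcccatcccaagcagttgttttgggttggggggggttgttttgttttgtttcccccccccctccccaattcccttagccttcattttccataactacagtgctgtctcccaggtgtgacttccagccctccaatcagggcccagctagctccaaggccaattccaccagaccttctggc. It has no capitals, since nothing matched.

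Total counts lay between 20888991 and 27007182 per library. Libraries are named by group and column number, Lira161, Lira162 and Lira164, and PBS155, PBS157 and PBS158. Libraries Lira162 and Lira164 lay on opposite sides for the members: Lira162 was the lowest of the liraglutide libraries for 9 of 9 members, with a median deviation of -0.43 (log2) from the group mean, and Lira164 the highest for 9 of 9, with a median of 0.36. That order of libraries held for 17.2% of all 12626 tested genes and for 24.1% of the 6112 with a lower fitted level under liraglutide. Results are therefore given with all libraries, without Lira164 and without Lira162. These libraries were picked from the members' own values, so the fitted changes move down without Lira164 and up without Lira162 by construction. Calls added without Lira164 are thus no separate support. Among hepatocyte markers, 9 of 9 were in the table, with summed levels of 78799.6 to 94603 CPM (counts scaled to the TMM-normalised library size) under liraglutide and 91718 to 112900.1 CPM under PBS, so the label of liver holds. Of the markers of other cells, erythroid genes summed to 42.9 to 100.1 CPM under liraglutide against 152 to 165 under PBS, with Hba-a1 and Hba-a2 at 0 counts in every library. Cholangiocyte markers summed to 26.6 to 28.6 CPM against 42.0 to 50.9, endothelial markers to 229.6 to 354 against 134 to 249.6, and stellate cell markers to 294 to 347 against 183 to 307. Macrophage markers summed to 195 to 319 CPM against 86.5 to 351, lymphocyte markers to 2.92 to 3.78 against 1.78 to 3.22 and neutrophil markers to 0.425 to 0.964 against 0.192 to 0.942. Such sums are ruled by the most abundant genes, as by Spp1 among cholangiocyte markers (means of 20.5 CPM under liraglutide and 36.3 under PBS). Markers of a list could also differ: among hepatocyte markers the log2 fold change was 0.53 for Hnf4a and -0.76 for Serpina1c. In these bulk samples, fewer cells of a type and less RNA per cell cannot be told apart. The part of these levels in the results below was not tested.

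Ccrn4l fell under liraglutide, and it was the 1 member of 9 past the threshold. The quasi-likelihood test of edgeR, adjusted by Benjamini-Hochberg over all 12626 tested genes and read at 0.05, called 8.77% of them (4.69% lower and 4.08% higher), so a single call among 9 is near that background. For 6 members, Dbp, Tef, Hlf, Ccrn4l, Usp2 and Wee1, the lowest PBS library was above the highest liraglutide library. Groups were separated in this direction for 16.4% of tested genes and in either direction for 31.3%. Fitted levels were lower under liraglutide for 8 members, and for 48.4% of all tested genes. That of Nfil3 was lower by less than 0.01 on the log2 scale, and above 0 when scaled to library totals. The median log2 fold change of the 9 was -0.45, against 0.01 over all tested genes. The members and the lists below were chosen with earlier results of these data known, so setting them beside all genes is no independent contrast. At an unadjusted p below 0.05, 6 members were lower and 0 higher, and 25.6% of tested genes passed in either direction. Without Lira164, the highest liraglutide library for each member, the same test called 5 members, all lower (Ccrn4l, Dbp, Tef, Hlf and Wee1). In that fit 11.7% of tested genes were called. Without Lira162 it called Ccrn4l alone, the fitted decreases of the others were smaller, and that of Nfil3 turned to 0.19. DESeq2's Wald test on all libraries called 4 of those 5, not Tef, with 12.5% of genes called. Without the low-count filter 2 members, Ccrn4l and Hlf, were called beside 7.09% of genes. Ccrn4l was the 1 member called, always lower, without Lira161 (3.62% of genes called), Lira162 (3.09%), PBS155 (7.56%), PBS157 (5.12%) or PBS158 (3.22%). The same held with DESeq2 size factors (8.72%), library totals (8.43%), a minimum mean of 5 CPM (10.5%) and limma-voom (9%).

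**Figure D1:**
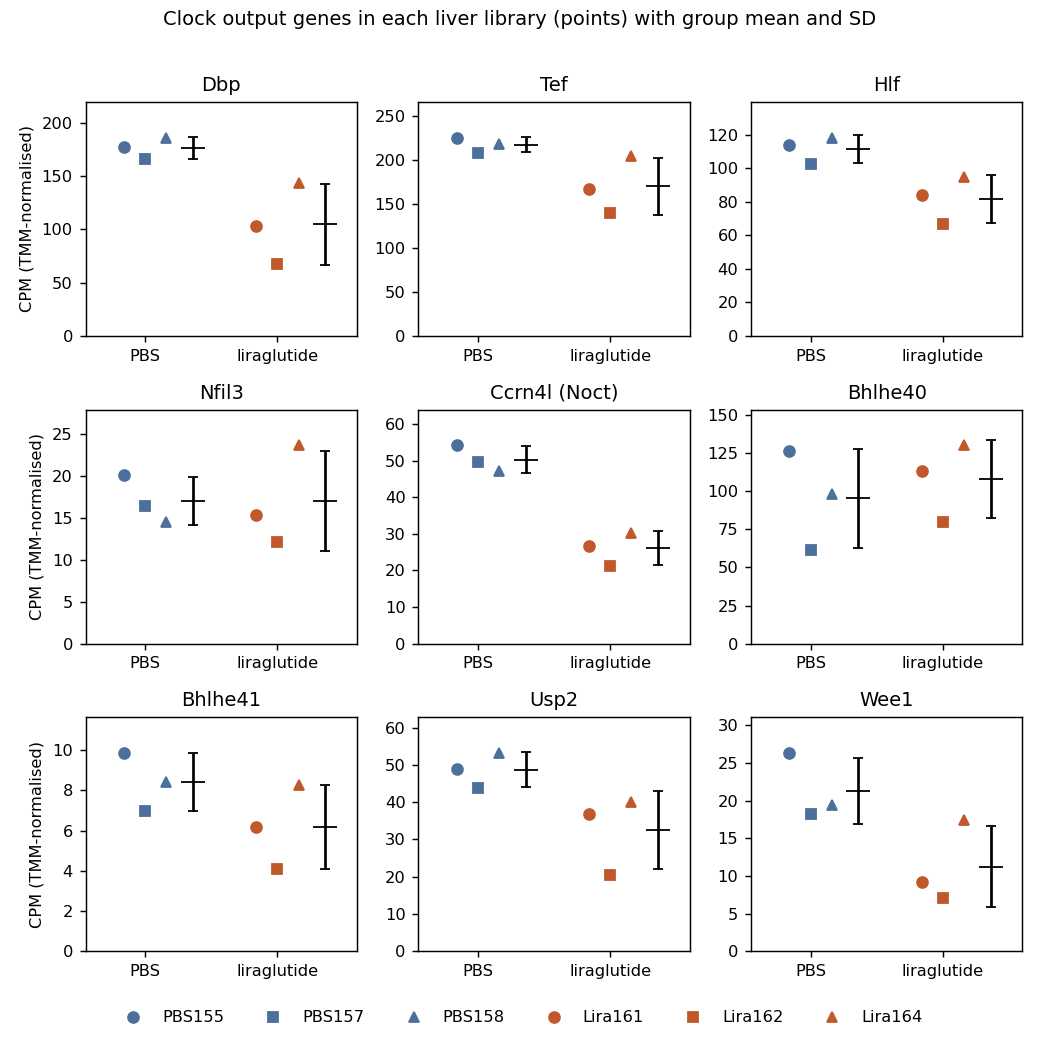
TMM-normalised CPM (y axis, from 0) of the 9 members in each of 3 PBS and 3 liraglutide libraries (points, shaped by library), with the group mean and SD (black). Ccrn4l lies between 21.2 and 30.4 CPM under liraglutide and between 47.1 and 54.2 under PBS, while the groups overlap for Nfil3, Bhlhe40 and Bhlhe41.

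Ccrn4l (Noct, ENSMUSG00000023087.15, chromosome 3, 51224447 to 51251644, plus strand, GRCm38) codes for nocturnin, which in mice is known for its nightly peak in the liver and for lipid phenotypes when it is lost. It was at 26.7, 21.2 and 30.4 CPM in libraries Lira161, Lira162 and Lira164. Libraries PBS155, PBS157 and PBS158 had 54.2, 49.5 and 47.1 CPM. Every liraglutide library was well below every PBS library, and the spread within a group was small beside the gap. The means were 26.1 ± 4.63 CPM (SD, n = 3) and 50.3 ± 3.63 CPM (n = 3), and the log2 fold change was -0.95 ± 0.13 (SE), a 1.93-fold lower level (edgeR adjusted p = 0.00581). Ccrn4l was called under all 12 alternatives, with adjusted p between 2.87e-07 and 0.0262 and log2 fold changes between -1.08 and -0.82. By p-value it stood at rank 106 of the 12626 tested genes.

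The genes whose profile over the 6 libraries was nearest to that of Ccrn4l were Sned1, which codes for a secreted matrix protein, and Bco2, a carotenoid-cleaving enzyme of mitochondria. Likeness was the root mean square difference of log2 CPM after centring each gene on its mean, over genes with a mean of at least 5 CPM. It was 0.05 for Sned1 and 0.08 for Bco2, beside an SD of 0.55 for Ccrn4l itself. Sned1 was at 5.64, 4.86 and 6.46 CPM in Lira161, Lira162 and Lira164 and at 11.8, 11.3 and 10.8 in PBS155, PBS157 and PBS158. Bco2 was at 14.5, 12.9 and 17.8 CPM against 29.0, 28.6 and 28.9 in the same order. Both share with Ccrn4l the low point in Lira162 and the high point of the liraglutide group in Lira164. This order follows from how they were picked, by nearness over the same libraries.

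A list of deadenylases and related enzymes, not all of nocturnin's own family, was set beside Ccrn4l. Of 9 tested genes of that kind (Cnot6, Cnot6l, Cnot7, Cnot8, Pde12, Angel1, Angel2, Pan2 and Parn), 1 fell, and the median log2 fold change was -0.09. Of all tested genes 8.77% were called in either direction and 4.69% were called lower. The gene that fell was Cnot8, a catalytic subunit of the CCR4-NOT complex, from 40.2 ± 0.623 to 30.1 ± 0.925 CPM (log2 fold change -0.42 ± 0.08, edgeR adjusted p = 0.0184). Its call was lost without Lira161, Lira162, PBS157 or PBS158 (adjusted p up to 0.0818).

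Dbp (ENSMUSG00000059824.12, chromosome 7, 45705088 to 45710203, plus strand) is the PAR bZIP gene with the widest daily swing in liver. It was at 103, 67.1 and 143 CPM in Lira161, Lira162 and Lira164, and at 177, 166 and 186 CPM in PBS155, PBS157 and PBS158. The PBS libraries were close together, and the liraglutide libraries were spread over a wide range below them. The means were 105 ± 38.0 against 176 ± 10.0 CPM, with a log2 fold change of -0.75 ± 0.25 that missed the threshold (edgeR adjusted p = 0.110, 95% interval -1.34 to -0.17). Without Lira164 it was -1.06 ± 0.18 (adjusted p = 0.00555), and without Lira162 it was -0.52 ± 0.16 (adjusted p = 0.122). Exons of Dbp overlap those of Sphk2 on the opposite strand by 539 bp, and with no strand setting stated for the counting, reads in that stretch cannot be assigned to either gene.

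Tef (ENSMUSG00000022389.15, chromosome 15, 81802421 to 81826863, plus strand) codes for thyrotroph embryonic factor, another of the D-box activators. Its level was 167, 139.6 and 204 CPM in Lira161, Lira162 and Lira164, beside 226, 208 and 218 CPM in PBS155, PBS157 and PBS158. The groups were separated only narrowly, Lira164 lying just under PBS157. The means of 170.3 ± 32.6 and 217 ± 8.76 CPM gave a log2 fold change of -0.35 ± 0.14 (edgeR adjusted p = 0.146, 95% interval -0.66 to -0.04). With Lira164 left out it was -0.51 ± 0.12 (adjusted p = 0.0246), and with Lira162 left out -0.23 ± 0.13 (adjusted p = 0.395). An antisense gene, Gm17597, overlaps exons of Tef by 193 bp and is not among the rows of the table.

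Hlf (ENSMUSG00000003949.16, chromosome 11, 90336536 to 90390895, minus strand) codes for hepatic leukemia factor, the remaining PAR bZIP activator of the liver. Libraries Lira161, Lira162 and Lira164 had 84.2, 66.5 and 94.6 CPM and PBS155, PBS157 and PBS158 had 114, 102 and 118 CPM. All liraglutide values were below all PBS values. The means were 81.8 ± 14.2 and 112 ± 8.21 CPM, the log2 fold change was -0.45 ± 0.13, and the edgeR adjusted p of 0.0691 was the smallest after that of Ccrn4l (95% interval -0.75 to -0.15). Hlf was called without Lira164 (-0.58 ± 0.13, adjusted p = 0.0200), by DESeq2 (adjusted p = 0.0338) and without the low-count filter (adjusted p = 0.0453), that is under 3 of 12 alternatives. Its adjusted p was at most 0.195, without Lira162, where the log2 fold change was -0.33 ± 0.12.

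Nfil3 (ENSMUSG00000056749.7, chromosome 13, 52967209 to 52981073, minus strand), the D-box repressor, had the same mean in both groups. It was at 15.3, 12.1 and 23.7 CPM in Lira161, Lira162 and Lira164 and at 20.1, 16.4 and 14.5 CPM in PBS155, PBS157 and PBS158. The liraglutide libraries held both the lowest and the highest value, so the groups overlapped fully. The means were 17.0 ± 5.98 and 17.0 ± 2.84 CPM. The 95% interval of the log2 fold change ran from -0.58 to 0.57 (edgeR adjusted p = 0.999), so changes of up to 1.49-fold in either direction lie within it.

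**Figure D2:**
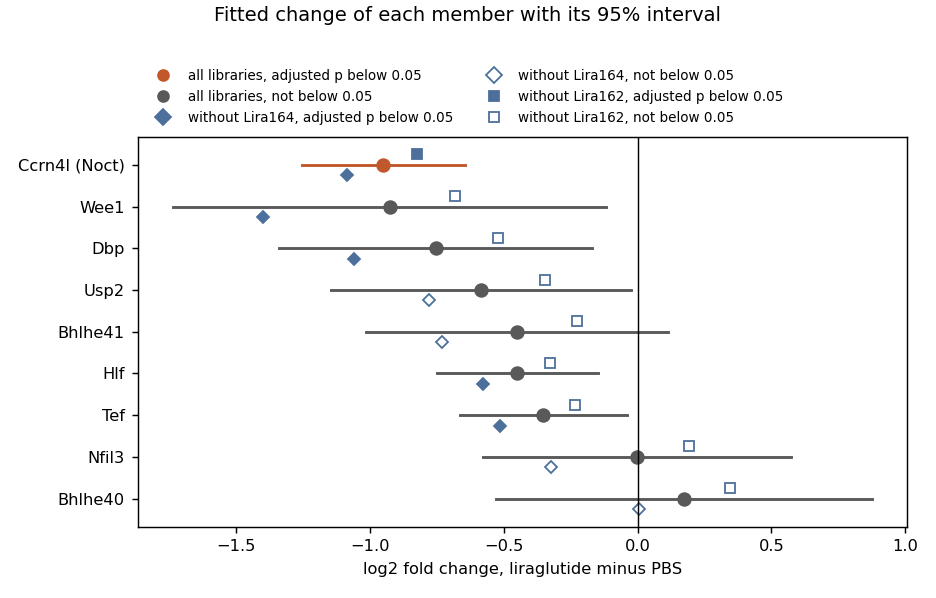
Log2 fold change (x axis, liraglutide minus PBS) of each member (y axis) from all 6 libraries with its 95% interval (circles and lines) and from the fits without Lira164 (diamonds) and without Lira162 (squares). Filled orange and blue marks are below an adjusted p of 0.05: Ccrn4l with all libraries and without Lira162, and Ccrn4l, Wee1, Dbp, Hlf and Tef without Lira164. Lira164 was the highest and Lira162 the lowest liraglutide library for every member.

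Levels of different genes were compared as CPM per kb of exon (the union of all exons in GENCODE M21). In the PBS libraries Dbp was highest at 58.9 ± 3.35 CPM per kb, followed by Tef at 27.6 ± 1.11, Bhlhe40 at 20.3 ± 6.90, Hlf at 16.7 ± 1.23, Usp2 at 10.1 ± 0.966, Nfil3 at 8.39 ± 1.40, Wee1 at 6.24 ± 1.28, Ccrn4l at 4.72 ± 0.341 and Bhlhe41 at 1.25 ± 0.214. Bhlhe40 overlapped with Tef and with Hlf in this order, and Nfil3 with Usp2 and with Wee1. With the longest coding transcript as the length, a choice made after seeing the data, the order was the same and Dbp was at 96.0 CPM per kb. Of these pairs Bhlhe40 with Hlf and Nfil3 with Wee1 still overlapped. Wee1 (from 5.34 CPM per kb) and Ccrn4l (up to 5.54) also overlapped with that length, though not by exon union. Summed per kb, the activators Dbp, Tef and Hlf stood at 9.06, 8.41 and 7.54 times the level of Nfil3 in Lira161, Lira162 and Lira164. The same ratio was 10.6, 12.0 and 15.0 in PBS155, PBS157 and PBS158. It was lower in every liraglutide library than in any PBS library, which is a description with no test. With the longest coding transcripts these ratios were higher, at 14.5, 13.4 and 12.1 against 16.9, 19.3 and 24.0, and the groups were again apart. By exon union, Dbp made up 50.5%, 44.7% and 54.4% of the summed activator level in the liraglutide libraries and 56.4%, 57.0% and 57.8% in the PBS libraries.

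Among the members, Tef and Hlf had the most alike profiles over the 6 libraries, with a root mean square difference of 0.07 in centred log2 CPM. Dbp and Usp2 came next at 0.14. Bhlhe40 and Wee1 were farthest apart at 0.67. These distances share the library sizes and the normalisation, and they describe 6 libraries only.

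Bhlhe40 (Dec1, ENSMUSG00000030103.11, chromosome 6, 108660629 to 108666925, plus strand), an E-box repressor that also answers to feeding, hypoxia and hormones, was the 1 member with a log2 fold change above 0, and it did not pass the test. It was at 113, 80.0 and 130.3 CPM in Lira161, Lira162 and Lira164 and at 126, 61.6 and 98.5 CPM in PBS155, PBS157 and PBS158. The PBS libraries were as widely spread as the liraglutide libraries, and the groups overlapped. The means were 108 ± 25.6 and 95.5 ± 32.5 CPM (log2 fold change 0.17 ± 0.29, edgeR adjusted p = 0.751, 95% interval -0.53 to 0.88). The sign turned to -0.06 without PBS157, the lowest PBS library. The gene 0610040F04Rik overlaps its exons by 118 bp on the opposite strand.

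Bhlhe41 (Dec2, ENSMUSG00000030256.11, chromosome 6, 145858243 to 145865558, minus strand), its close relative, was the least abundant member, with between 106 and 269 reads per library. It had 6.17, 4.09 and 8.25 CPM in Lira161, Lira162 and Lira164 beside 9.86, 6.98 and 8.40 CPM in PBS155, PBS157 and PBS158. Lira164 lay within the range of the PBS libraries. The means were 6.17 ± 2.08 and 8.41 ± 1.44 CPM (log2 fold change -0.45 ± 0.25, edgeR adjusted p = 0.295, 95% interval -1.02 to 0.11). It was -0.73 without Lira164 (adjusted p = 0.0712) and -0.23 without Lira162 (adjusted p = 0.627). Per kb, Bhlhe40 was 26.2, 27.9 and 22.6 times as abundant as Bhlhe41 in Lira161, Lira162 and Lira164. In PBS155, PBS157 and PBS158 it was 18.3, 12.6 and 16.8 times as abundant. The ratio was thus higher in every liraglutide library, as it was with the longest coding transcripts (31.1 to 38.5 against 17.4 to 25.3). This is a description with no test, and neither gene passed the threshold. The annotation places Gm43909 on the opposite strand over 1280 bp of its exons, and that gene has no row in the table.

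Usp2 (ENSMUSG00000032010.15, chromosome 9, 44067021 to 44095627, plus strand), the rhythmic deubiquitinase gene, was at 36.9, 20.5 and 40.1 CPM in Lira161, Lira162 and Lira164. It was at 49.0, 43.9 and 53.2 CPM in PBS155, PBS157 and PBS158. Lira162 was far below the other liraglutide libraries, of which Lira164 lay just under the lowest PBS library. The means were 32.5 ± 10.5 and 48.7 ± 4.65 CPM, with a log2 fold change of -0.58 ± 0.24 (edgeR adjusted p = 0.179, 95% interval -1.15 to -0.02). It missed the threshold under all 12 alternatives (adjusted p from 0.0635 to 0.364), although every log2 fold change was below 0, from -0.78 without Lira164 to -0.34 without Lira162. Genes Gm49380 and Gm39325 each overlap its exons by 200 bp on the opposite strand.

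Wee1 (ENSMUSG00000031016.9, chromosome 7, 110122046 to 110143286, plus strand), the mitotic inhibitor kinase with E-boxes known in its mouse promoter, had 9.21, 7.14 and 17.4 CPM in Lira161, Lira162 and Lira164. PBS155, PBS157 and PBS158 had 26.3, 18.2 and 19.4 CPM. Lira164 was close to the lowest PBS library and the other liraglutide libraries were far below. The means were 11.2 ± 5.41 and 21.3 ± 4.37 CPM, and the log2 fold change of -0.93 ± 0.34 was nearly that of Ccrn4l with a wider error (edgeR adjusted p = 0.147, 95% interval -1.74 to -0.12). Without Lira164 it was -1.40 ± 0.19 (adjusted p = 0.00220), and without Lira162 it was -0.68 (adjusted p = 0.293). DESeq2 called it on all libraries (adjusted p = 0.0138).

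Most partners of Wee1 in mitotic entry had few reads. Of 10 listed, 6 were tested, of which 5 were at 1.39 CPM or below in every library and Cdc25a was higher, and Cdc25c, Ccnb1, Ccnb2 and Plk1 had at most 9 reads in any library. By edgeR 0 of the 6 were called, beside 8.77% of all tested genes. At an unadjusted p below 0.05, 1 was higher, and 25.6% of all tested genes passed in either direction. DESeq2 called 1 gene of the list higher, with 12.5% of genes called in either direction. EdgeR without the low-count filter also called 1 higher, with 7.09% of genes called. Cdc25a, the phosphatase that opposes WEE1, was at 5.32 ± 1.19 CPM under liraglutide and 3.00 ± 0.420 under PBS (log2 fold change 0.82 ± 0.22, edgeR adjusted p = 0.0508). Cdc25b, a phosphatase of the same family, was at 1.01 ± 0.382 against 0.602 ± 0.179 CPM (adjusted p = 0.280).

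**Figure D3:**
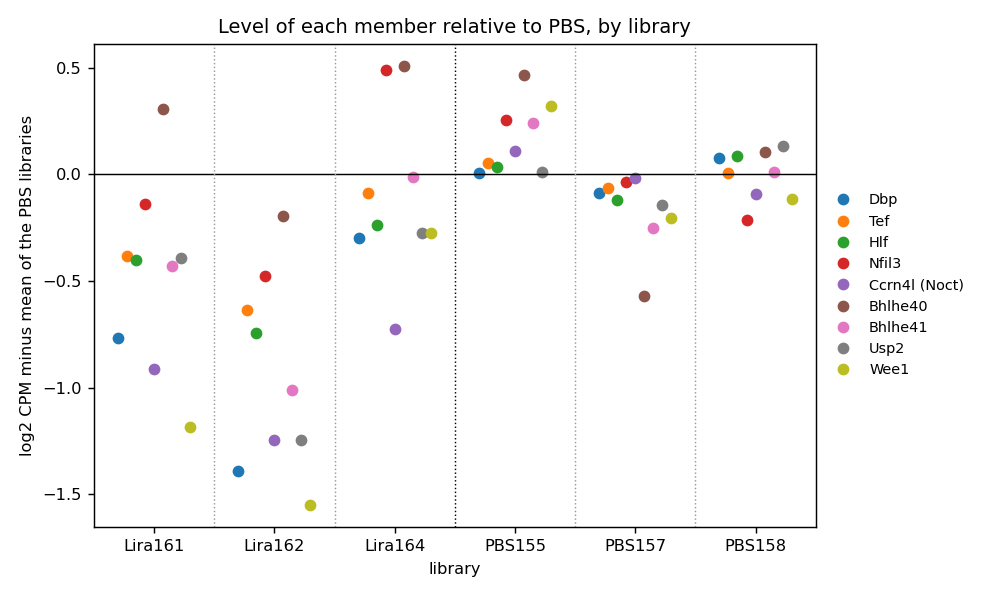
Log2 CPM of each member minus its mean over the PBS libraries (y axis) in each library (x axis), 1 point per member. In Lira162 all 9 points lie below their values in Lira161 and Lira164, and in Lira164 Bhlhe40 and Nfil3 lie above 0 and Ccrn4l is the lowest, while Wee1 is the lowest in Lira161 and Lira162.

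The core clock genes upstream of these outputs moved in part. Per3, Cry1 and Cry2 fell and Csnk1e rose among 16 tested, and the median log2 change was -0.15. Among all tested genes 4.69% were called lower and 4.08% higher. Per3, a PER family gene, was at 21.3 ± 7.31 CPM under liraglutide against 58.7 ± 6.42 (log2 fold change -1.47 ± 0.24, edgeR adjusted p = 0.0139). The repressor gene Cry1 fell from 8.19 ± 1.02 to 3.65 ± 0.840 CPM (-1.16 ± 0.20, adjusted p = 0.0105), and Cry2 fell by 0.48 ± 0.12 (adjusted p = 0.0433). Csnk1e, a casein kinase that phosphorylates PER proteins, rose by 0.74 ± 0.13 (adjusted p = 0.0119). Cry1 kept its call whichever library was left out. Per3 lost it without Lira161 or PBS158 (adjusted p up to 0.0625), Csnk1e without Lira162 (0.0638), and Cry2 in every such fit but that without Lira164 (up to 0.152). The count of core clock genes that fell was 1 without Lira161 or PBS158, 2 without PBS155 or PBS157, 3 without Lira162 and 5 without Lira164. Over all tested genes the share called in either direction ran from 3.09% without Lira162 to 11.7% without Lira164. Lira164 was the highest liraglutide library for 9 of the 16 and Lira162 the lowest for 6 (37.5%), with both true of 5. Over all tested genes the shares were 35.1% for Lira164 highest, 32.0% for Lira162 lowest and 17.2% for both.

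Genes that the PAR bZIP factors are known to act on in mouse liver, directly or through other receptors, split between lower and higher calls. Among the 14 tested there were 4 that fell and 2 that rose, and the median log2 fold change was -0.30. The shares over all tested genes were 4.69% lower and 4.08% higher. Cyp7a1, the entry enzyme of bile acid synthesis, fell by 2.70 ± 0.34. Aldh1a1, a retinaldehyde dehydrogenase, fell by 1.01 ± 0.19, Gstt1, a glutathione transferase, by 0.94 ± 0.20 and Cyp2c50, a drug-metabolising P450, by 1.23 ± 0.29 (edgeR adjusted p from 0.0080 to 0.0423 for these genes). Cyp4a14, a fatty acid hydroxylase, rose by 2.01 ± 0.31 (adjusted p = 0.0116) and Por, the electron donor of P450 enzymes, by 0.74 ± 0.17 (adjusted p = 0.0287). Aldh1a1, Cyp2c50 and Cyp4a14 have close paralogs that may share their reads, so their values are uncertain. Only Cyp7a1 of these kept its call in all 6 fits with a library left out. The list had 1 lower member without Lira161, 2 without Lira162, PBS155 or PBS157, 6 without Lira164 and 1 without PBS158, and 1, 0, 2, 1, 3 and 1 higher members without Lira161, Lira162, Lira164, PBS155, PBS157 and PBS158. The share of all tested genes called in these fits also varied, from 3.09% without Lira162 to 11.7% without Lira164.

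Among 18 tested genes from other rhythmic pathways of mouse liver, 4 rose and 1 fell, and their median log2 change was 0.48. Beside them, 4.08% of all tested genes were called higher and 4.69% lower. The liver glycogen synthase gene Gys2 rose by 0.92 ± 0.12 (edgeR adjusted p = 0.00508), the chaperone genes Hsph1 and Hspa8 by 0.82 ± 0.14 and 0.62 ± 0.14 (adjusted p = 0.0115 and 0.0260), and the triglyceride lipase gene Pnpla2 by 0.95 ± 0.20 (adjusted p = 0.0265). Upp2, a uridine phosphorylase, fell from 545 ± 104 to 200.2 ± 53.1 CPM (-1.45 ± 0.22, adjusted p = 0.00957). Gys2, Hsph1 and Upp2 kept their calls in all 6 fits with a library left out. Hspa8 and Pnpla2 lost theirs without Lira161, Lira162, PBS155 or PBS158 (adjusted p up to 0.102). The number that rose was 6 without Lira164, 4 without PBS157 and 2 without any other library. The number that fell was 3 without Lira164 and 1 without any other library, and 2 by DESeq2. With a library left out, 3.09% (without Lira162) to 11.7% (without Lira164) of all tested genes were called.

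**Figure D4:**
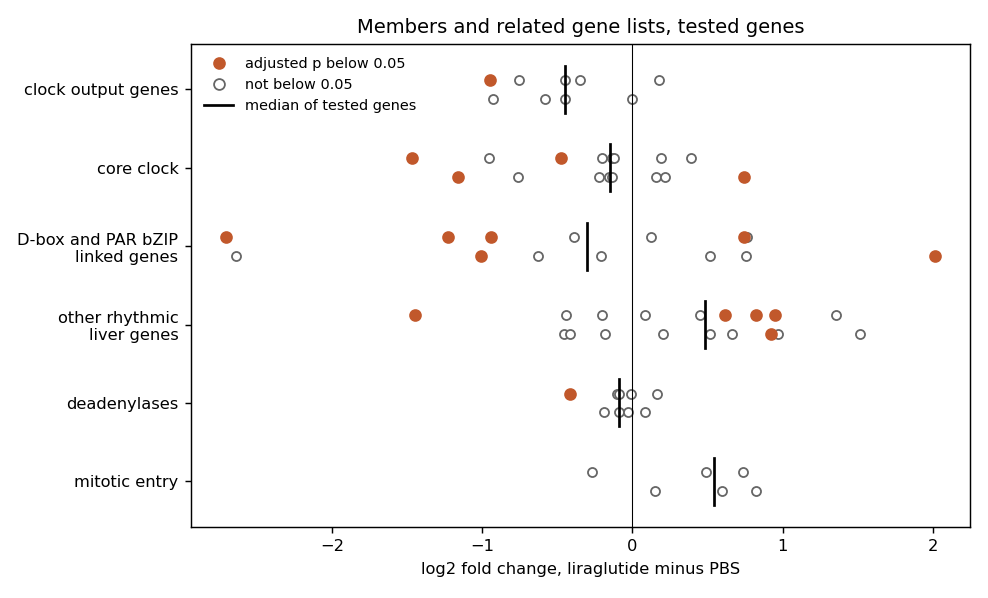
Log2 fold change (x axis, liraglutide minus PBS) of the tested genes of each list (y axis), filled where the adjusted p is below 0.05, with the median as a bar. The 9 clock output genes have a median of -0.45 with Ccrn4l filled, and the other lists have medians between -0.30 and 0.54.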

How the data were processed

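RNA was sequenced in 6 mouse liver libraries. The authors deposited raw read counts per gene symbol, whole numbers that are not normalised. STAR and mm10 were used, per the submitters' processing notes. Counting tool, annotation, strand setting and versions: not given in the sources used here. Columns were tied to groups only, because their numbers differ from the triplicate numbers in the labels. Chi-square per degree of freedom between libraries of a group was 32.8 to 64.9, so none were duplicates. Total counts of 20888991 to 27007182 set the precision of low genes.

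Genes were filtered with filterByExpr (12626 of 16949 with a count) and modelled in R 4.3.3 by edgeR 4.0.16 (TMM, estimateDisp, robust glmQLFit, glmQLFTest, group as the only term). Tests are two-sided with Benjamini-Hochberg adjustment over all tested genes. SE is the log2 fold change divided by the square root of F, and 95% intervals use the t quantile of the fit. Profiles used log2 CPM with a prior count of 2. The procedure was tested on simulated counts. Positions and lengths are from GENCODE M21 (GRCm38, the assembly of mm10) and promoters from RefSeq. The alternatives were DESeq2 1.42.0 size factors, library totals, no filter beyond 1 count, a mean of at least 5 CPM, DESeq2's Wald test, limma-voom (limma 3.58.1) and each library left out. The members and lists were chosen with earlier results of these data known. The lists held 132 distinct genes, of which 3 were found under an older symbol and 2 not found. All 9 members are named. Called genes of a list are named, up to 6 by p, or 2 as values where none was called. The nearest profiles exclude genes named Gm or Rik.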

Additional observations from a re-analysis of the deposited data

How the results depend on the processing

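Ccrn4l was called lower under all 12 alternatives. The count of called members, all lower, was 2 without the low-count filter, 4 with DESeq2's Wald test and 1 to 5 with a library left out, where 5 came without Lira164 and 1 without any other library. Over all genes these last fits called 393 to 1496 genes (231 to 802 of them lower), against 1107 (592 lower). The related lists together had 16 called genes, 7 higher and 9 lower. They had 26 (12 and 14) with DESeq2 and 7 to 24 (2 to 9 higher, 3 to 15 lower) with a library left out, the fewest without Lira161 or PBS158. The sign of Nfil3, near 0, turned to 0.0498 with library totals and 0.0058 with a mean of at least 5 CPM, and ran from -0.33 to 0.19 with a library left out. That of Bhlhe40 ran from -0.0628 to 0.41, below 0 only without PBS157. The cause was not tested. Dbp, Tef, Hlf, Usp2, Wee1 and Bhlhe41 kept their direction under all 12. With library totals 57.2% of called genes were higher, against 46.5%. No paired analysis was possible because the column numbers differ from the triplicate numbers in the labels. Bhlhe41 had the lowest counts of the members, and 4 of 10 mitotic genes were too low to test.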
